A study of Homo sapiens with 4 samples.

Results

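The 34 genes described here cover glucose metabolism and the cellular response to low oxygen. Of these, 23 encode the steps from glucose uptake through glycolysis to lactate export, with their main regulators, and 11 are targets commonly induced by low oxygen. The genes form a named list, not chosen by a threshold on measured values, but earlier results of these data were known at the choice. All 34 were found by symbol among the 60675 genes of each deposited table. The samples were 4 poly(A) RNA-seq libraries of MM134, an established line from an estrogen receptor-positive lobular breast carcinoma, with 2 libraries of cells labelled HER2 WT (wild-type HER2) and 2 of cells labelled HER2 L755S (HER2 with a leucine-to-serine substitution in its kinase domain). All 4 libraries came from estrogen-deprived cells, kept for 7 days in phenol red-free medium with 5% charcoal-stripped serum, so no library shows either line with estrogen, and none was labelled as low in oxygen. The sources used here do not say how HER2 was introduced, whether a line is 1 clone or a pool, or whether libraries 1 and 2 of a line were separate cultures. The p-values therefore weigh the difference between the lines only against the spread of the libraries within a line. Part of that spread may be technical.

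In glycolysis, glucose enters through transporters of the GLUT family, is phosphorylated by hexokinase, is committed to the pathway by phosphofructokinase and ends as pyruvate. Pyruvate is then either reduced to lactate by lactate dehydrogenase and exported, or oxidised in mitochondria, an entry that pyruvate dehydrogenase kinases restrain. Many of these genes, along with genes for angiogenesis, collagen hydroxylation and mitophagy, are direct targets of the hypoxia-inducible factors (HIF), whose alpha subunits are destroyed in the presence of oxygen after hydroxylation by prolyl hydroxylases such as EGLN3. Several glycolytic steps have 2 or more isozymes, and cancer cells often use the inducible forms (SLC2A1, HK2, PFKP, LDHA).

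Each library held 27423259 to 31088398 estimated gene counts. Mitochondrially encoded transcripts took 4.03% to 4.395% of the counts in the libraries numbered 1 and 8.834% to 13.472% in those numbered 2. ERBB2, the gene of HER2, did not differ between the lines on average (log2 fold change −0.09, edgeR quasi-likelihood adjusted p = 0.998), which does not check the labels, since both carry HER2 and a substitution is not visible in gene counts. All 9 luminal epithelial markers examined were expressed, with summed levels of 8820 to 9680 CPM (a gene's count relative to its library's scaled total). Of these, 4 had positive and 5 negative fold changes in HER2 L755S, and edgeR called none without the library number in the fit. The largest was that of ESR1 (log2 fold change −1.29, edgeR adjusted p = 0.148). With the library number in the fit as a replicate block, edgeR called ESR1 alone of the 9 (log2 fold change −1.325, adjusted p = 0.000171). ESR1 had 176.3 and 281.8 CPM in HER2 WT and 64.7 and 122.3 CPM in HER2 L755S. The 6 leukocyte markers summed to at most 0.803 CPM. Of 8 fibroblast and endothelial markers only COL1A1 (50.99 to 113.9 CPM) and COL1A2 (0 to 1.91 CPM) were high enough to test, and THY1, PECAM1 and CDH5 were at 0 in every library.

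On a per-length scale (TPM, a relative abundance corrected for transcript length) the genes ranged from very abundant to nearly undetected. GAPDH had the highest mean level over the 4 libraries, at 4171 TPM, followed by ALDOA at 1311, TPI1 at 574.7 and LDHA at 511.6. ENO1 (472.2 TPM), PKM (464.5 TPM), PGK1 (393.1 TPM) and SLC2A1 (364.3 TPM) came next. The libraries of these neighbours overlapped, so their order is not resolved: ENO1 ran from 279.58 to 583.38 TPM and PKM from 378.95 to 621.92 TPM. At the other end, PFKP averaged 3.70 TPM and 3 genes were too low to test.

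**Figure D1:**
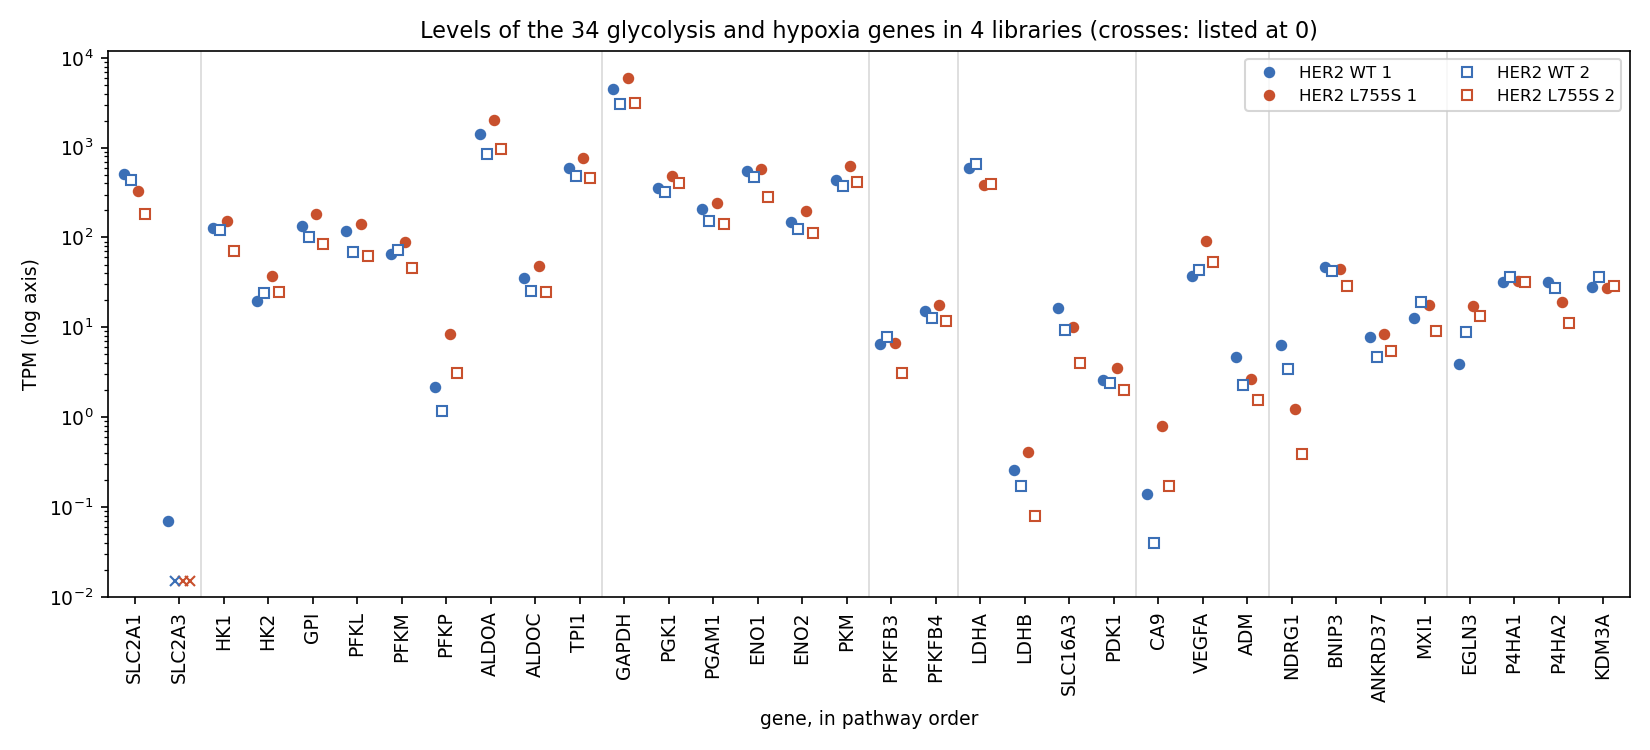
TPM of each of the 34 genes in the 4 libraries, on a log axis, in pathway order; crosses mark libraries in which the gene is listed at 0. GAPDH and ALDOA lie at the top, LDHB, CA9 and SLC2A3 lie below 1 TPM in every library, and TPM values are not adjusted for the larger mitochondrial share of the libraries numbered 2.

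The 3 untested genes have well-known roles. SLC2A3, the high-affinity neuronal glucose transporter GLUT3, had 2 counts in HER2 WT 1 and 0 in the other 3 libraries; a count of 0 allows up to 3 counts, or 0.103 to 0.117 CPM in those libraries. LDHB, the lactate dehydrogenase subunit that favours lactate use, had 7 and 2 counts in the HER2 WT libraries against 10 and 1 in those of HER2 L755S. CA9, the carbonic anhydrase at the cell surface that is among the most hypoxia-specific HIF targets, had 4 and 1 counts against 2 and 2. Both lines thus had SLC2A1 as their one measurable transporter of the pair and LDHA as nearly their whole lactate dehydrogenase message, with LDHB at 0.0203% to 0.106% of the summed TPM of both.

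Comparing HER2 L755S with HER2 WT without the number in the fit, 1 of the 31 tested genes passed an adjusted p of 0.05. This was PFKP, higher in HER2 L755S (3.23%, beside 1.69% of all 16538 genes tested, 0.738% higher and 0.949% lower). With the number added as a replicate block, 6 of the 31 passed, 3 higher and 3 lower, beside 10.5% of all genes. Without the number, 6 of the 31 genes had an unadjusted p under 0.05, as did 1742 of all genes tested. They were PFKP, EGLN3, VEGFA, NDRG1, P4HA2 and SLC2A1, the same 6 as with the block. In 12 of the 31 genes (38.7%) the libraries of the 2 lines did not overlap in CPM, 8 with HER2 L755S higher and 4 lower, and across all tested genes this share was 36.2%, 16.9% higher and 19.3% lower. The fold changes leaned upward: 22 were positive and 9 negative with a median log2 fold change of 0.23, beside a median of 0.00 and 50.3% positive over all tested genes. This median was 0.34 between the libraries numbered 1 and 0.12 between those numbered 2. In fits that left out 1 library, the median was 0.045 without HER2 L755S 1, with 18 positive and 13 negative, and 0.43 without HER2 L755S 2. Those 2 fits set 1 HER2 L755S library against both HER2 WT libraries without a term for the number, so differences between numbers enter them.

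**Figure D2:**
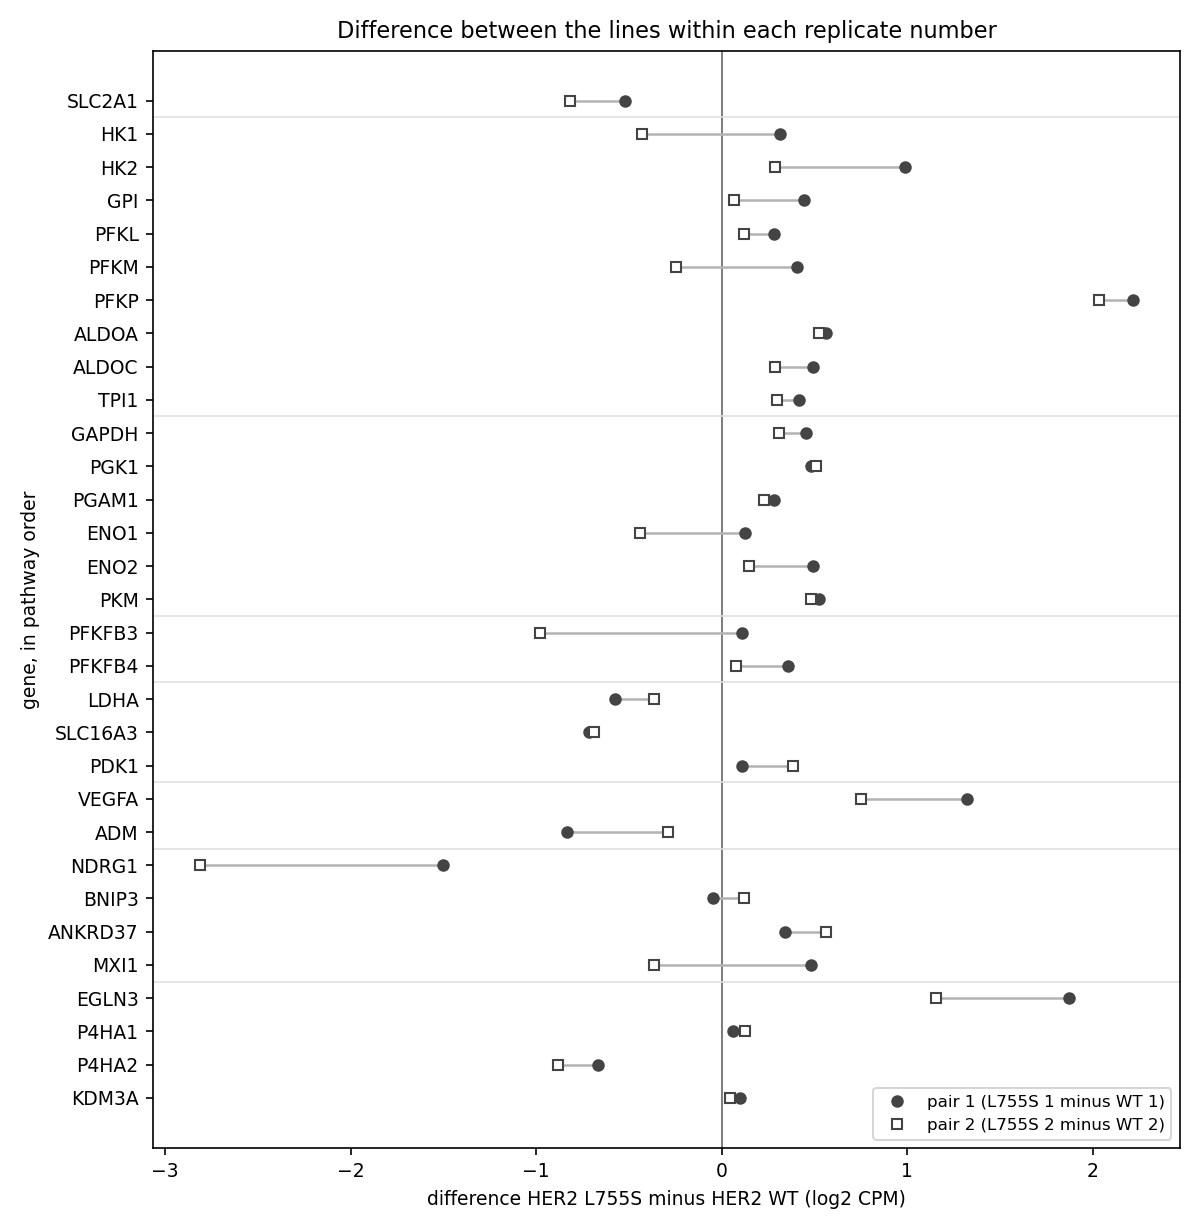
Difference in log2 CPM between HER2 L755S and HER2 WT for the 31 tested genes, separately for the libraries numbered 1 (filled circles) and 2 (open squares). For 19 genes both differences are above 0, for 6 both are below 0 (SLC2A1, LDHA, SLC16A3, ADM, NDRG1 and P4HA2) and for 6 they point in opposite directions.

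At glucose entry, SLC2A1 encodes the ubiquitous transporter GLUT1 (chromosome 1, 42925375 to 42959176, GRCh38). SLC2A1 measured 698.9 and 671.7 CPM in HER2 WT libraries 1 and 2, against 487.4 and 381.2 CPM in HER2 L755S libraries 1 and 2. The HER2 L755S libraries both lay below the HER2 WT libraries (means 685 ± 19.2 and 434 ± 75.1 CPM, SD, n = 2 each). The log2 fold change was −0.66 (SE 0.296), and the difference did not pass adjustment over all genes (edgeR adjusted p = 0.462). With the number as a replicate block the edgeR adjusted p of SLC2A1 was 0.0443. Other protein-coding genes on chromosome 1 with a mean of at least 5 CPM had a median log2 fold change of −0.18, with 72.8% of 1113 genes negative, and those within 5 Mb of SLC2A1 had a median of −0.13; the part of this shift in the SLC2A1 value was not tested. In these bulk libraries, fewer cells with the transcript and less of it per cell cannot be told apart.

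The enzyme genes from hexokinase to pyruvate kinase leaned the other way. Of 15 tested, 13 had a positive fold change, 12 were higher in HER2 L755S in both number pairs and none was lower in both; all genes tested were higher in both pairs in 33.4% of cases and lower in both in 32.1%. Their median log2 fold change was 0.36, with 0.45 between the libraries numbered 1 and 0.29 between those numbered 2. Only PFKP passed the test, both without the number and with it as a replicate block. Fits that left out 1 library had no term for the number, so differences between numbers enter them. For these 15 genes the median log2 difference of number 2 over number 1 was −0.42. The count of positive fold changes moved most without HER2 L755S 1, when 10 of the 15 were positive with a median of 0.07. Without HER2 L755S 2, 15 of 15 were positive with a median of 0.59, and without HER2 WT 2 the median was 0.24 with 12 positive.

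Phosphofructokinase catalyses the committed step, and PFKP is its platelet-type isozyme (chromosome 10, 3066333 to 3137712, GRCh38). PFKP had 2.97 and 1.76 CPM in HER2 WT (96 and 51 counts) and 13.8 and 7.25 CPM in HER2 L755S (405 and 186 counts). Both HER2 L755S libraries were above both HER2 WT libraries, and within each line library 2 was the lower. PFKP rose in HER2 L755S by a log2 fold change of 2.16 (SE 0.474, edgeR adjusted p = 0.0484), from 2.36 ± 0.855 to 10.6 ± 4.67 CPM (SD, n = 2 each), with differences of 2.22 and 2.03 in the 2 number pairs. The call sat close to its threshold. The alternatives below do not include the fit with the number as a replicate block, where the edgeR adjusted p of PFKP was 0.000107. It was lost without HER2 L755S 1 (log2 fold change 1.61, adjusted p = 0.105) and without HER2 WT 2 (1.84, adjusted p = 0.0693), as it was without scaling (adjusted p = 0.0673) and with limma-voom (adjusted p = 0.0582). Over 11 alternatives (other scalings, filters and tools, and each library left out) the adjusted p ran from 0.000237 to 0.105, and 7 made the call.

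The liver and muscle isozymes carried most of the phosphofructokinase message. PFKL had 235.2 and 141.6 CPM in HER2 WT and 285.6 and 153.8 CPM in HER2 L755S, and PFKM had 128.2 and 145.1 CPM against 170.1 and 122.4 CPM. The libraries of the lines overlapped for both genes (log2 fold changes 0.22 and 0.10, edgeR adjusted p = 0.992 and 0.998). On the TPM scale PFKP made up 1.16% and 0.829% of the 3 isozymes in HER2 WT against 3.49% and 2.84% in HER2 L755S, so that PFKP stayed the minor form in every library. With 2 libraries against 2 an exact permutation test cannot go below p = 0.333, and isozyme shares are therefore given without a test.

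The promoter windows of PFKP are shown because it was the one gene called, beside a window of HK2, the other upper-pathway kinase whose libraries did not overlap. They are RefSeq sequences on GRCh38.p14, each the 250 bases before an annotated start on the plus strand, 5′ to 3′, with capitals marking the core of the HIF response element in its letters ACGTG or GCGTG or their reverse complements. PFKP has 4 such windows, of which 2 hold neither motif. The others are chr10:3068939-3069188 and chr10:3104359-3104608, and the HK2 window is chr2:74834920-74835169.
PFKP, first window: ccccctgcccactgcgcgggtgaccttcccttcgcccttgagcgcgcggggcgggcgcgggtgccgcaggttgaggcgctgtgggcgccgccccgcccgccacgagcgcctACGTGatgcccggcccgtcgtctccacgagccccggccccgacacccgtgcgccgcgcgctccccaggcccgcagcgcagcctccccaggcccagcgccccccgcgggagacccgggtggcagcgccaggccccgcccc
PFKP, second window: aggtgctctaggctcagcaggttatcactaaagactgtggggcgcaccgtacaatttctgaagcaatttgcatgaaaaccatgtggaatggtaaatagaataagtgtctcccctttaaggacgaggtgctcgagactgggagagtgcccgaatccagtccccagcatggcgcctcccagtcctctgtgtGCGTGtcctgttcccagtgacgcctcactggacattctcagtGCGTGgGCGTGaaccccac
HK2: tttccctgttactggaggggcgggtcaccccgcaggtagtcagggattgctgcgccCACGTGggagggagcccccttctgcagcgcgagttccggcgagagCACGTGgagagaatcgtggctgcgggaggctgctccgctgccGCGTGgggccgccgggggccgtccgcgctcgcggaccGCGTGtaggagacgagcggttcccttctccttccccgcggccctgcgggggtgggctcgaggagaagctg

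In the HK2 window the palindrome CACGTG, which holds ACGTG on both strands, occurs at both of the marked upstream places, followed by GCGTG at the other two. The first PFKP window holds 1 ACGTG and the second holds 3 GCGTG. RefSeq windows were found for 31 of the 34 genes, 60 windows in all; SLC2A3, VEGFA and NDRG1 had no entry. ACGTG stood on either strand in 36.7% of the 60 windows, in windows of 19 genes, beside 22.2% of the windows of all tested genes, and GCGTG stood in 33.3% beside 43.0%. Either motif was present in 58.3% of the 60 windows and in 54.6% of those of tested genes. These matches describe letters and do not show binding.

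Hexokinase traps glucose in the cell, HK1 being the constitutive and HK2 the inducible isozyme. HK2 had 78.3 and 100.3 CPM in HER2 WT and 155.3 and 122.2 CPM in HER2 L755S. The 2 HER2 L755S libraries were the higher ones, most clearly library 1, but the log2 fold change of 0.64 (SE 0.316) did not pass (edgeR adjusted p = 0.554). HK1 had 324.2 and 317.4 CPM in HER2 WT against 403.1 and 235.8 CPM in HER2 L755S, one value above and one below both HER2 WT libraries (log2 fold change −0.01). As a share of the TPM of HK1 and HK2 together, HK2 was 13.1% and 16.9% in HER2 WT against 19.6% and 26.0% in HER2 L755S.

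**Figure D3:**
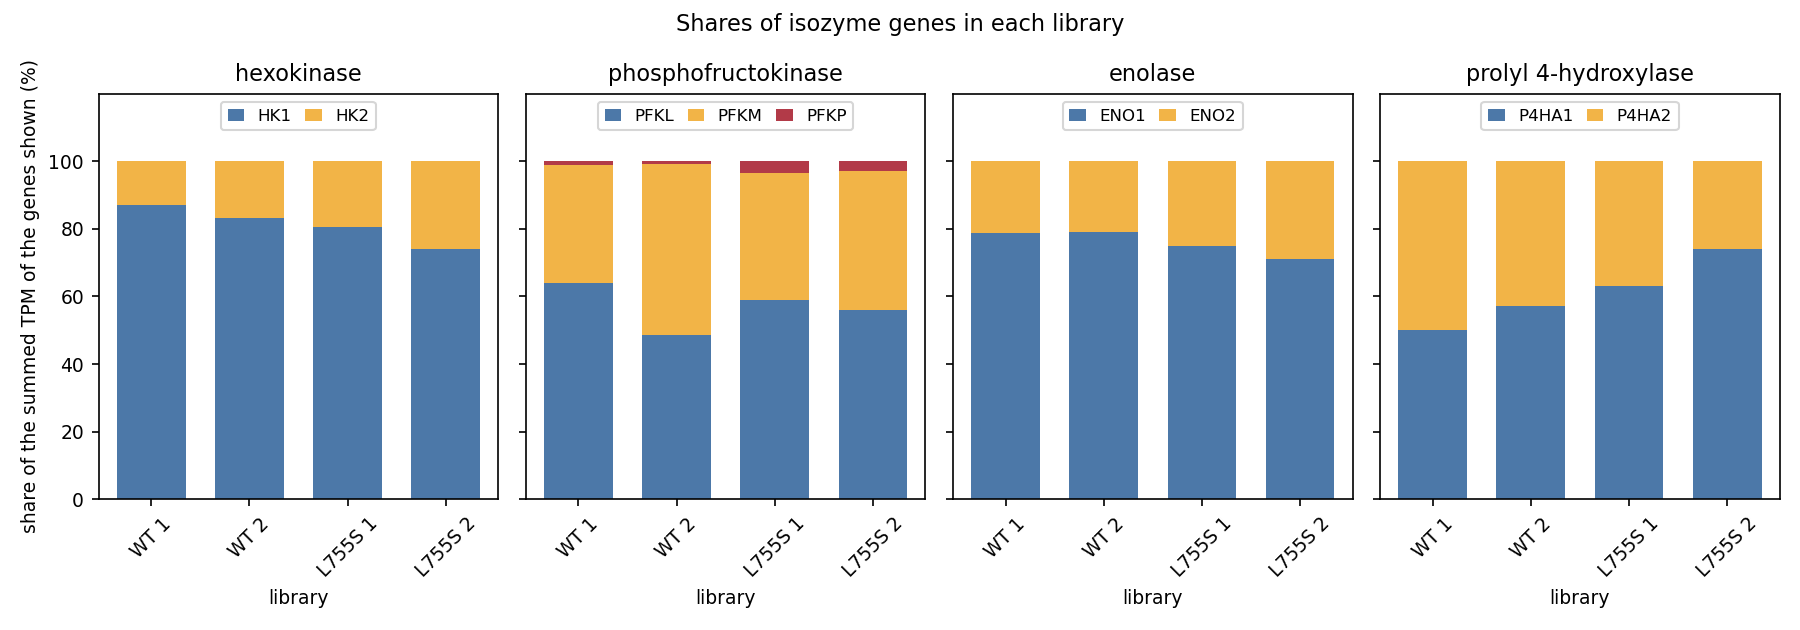
Share of each isozyme gene in the summed TPM of its family, as stacked bars per library. The HK2, PFKP and ENO2 shares are higher in both HER2 L755S libraries than in both HER2 WT libraries, and the P4HA2 share is lower in both.

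GPI, which isomerises glucose 6-phosphate, and the aldolases ALDOA and ALDOC, which split the hexose, had log2 fold changes of 0.29, 0.55 and 0.41. ALDOA had 899.8 and 561.6 CPM in HER2 WT and 1327 and 808.4 CPM in HER2 L755S. The L755S library was higher within each number, by 0.56 and 0.53 on the log2 scale, yet the lines overlapped because both libraries numbered 2 were low (edgeR adjusted p = 0.766). ALDOC, the brain-type aldolase, stayed at 2.35% to 2.85% of aldolase TPM. TPI1, triosephosphate isomerase, was higher in both HER2 L755S libraries (607.1 and 463.4 CPM against 455.5 and 377.7 CPM), its log2 fold change being 0.36 (edgeR adjusted p = 0.887).

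In the pay-off phase, PGK1 and PKM are the kinases that make ATP. PGK1 had 432.9 and 454.9 CPM in HER2 WT and 603.7 and 646.6 CPM in HER2 L755S. The values within each line lay close together and the 2 number pairs gave nearly the same difference, 0.48 and 0.51, but the log2 fold change of 0.49 (SE 0.287) did not pass (edgeR adjusted p = 0.692). PKM, pyruvate kinase, had 690.5 and 609.3 CPM in HER2 WT and 991.5 and 849.8 CPM in HER2 L755S. Its pairs differed by 0.52 and 0.48 without overlap between the lines, with a log2 fold change of 0.50 (SE 0.290, edgeR adjusted p = 0.685); gene counts do not separate its PKM1 and PKM2 splice forms.

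GAPDH, the NAD-dependent dehydrogenase often used as a reference gene, had 3412 and 2470 CPM in HER2 WT and 4670 and 3059 CPM in HER2 L755S. It was higher in HER2 L755S within each number and lower in library 2 of each line, so the lines overlapped (log2 fold change 0.39, edgeR adjusted p = 0.876). PGAM1, phosphoglycerate mutase, and ENO2, the neuronal enolase, behaved alike in sign, with log2 fold changes of 0.26 and 0.34. ENO1, the ubiquitous enolase, differed by 0.13 between the libraries numbered 1 and by −0.44 between those numbered 2. The ENO2 share of the enolase TPM was 21.3% and 20.8% in HER2 WT against 25.2% and 28.8% in HER2 L755S.

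PFKFB3 and PFKFB4 set the level of fructose 2,6-bisphosphate, the strongest activator of phosphofructokinase. PFKFB3 had 18.2 and 23.7 CPM in HER2 WT and 19.6 and 12 CPM in HER2 L755S, and only HER2 L755S 2 stood below the others (log2 fold change −0.40, SE 0.370, edgeR adjusted p = 0.913). PFKFB4 had a log2 fold change of 0.23 with overlapping lines.

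At the exit of the pathway, LDHA encodes the subunit that reduces pyruvate to lactate (chromosome 11, 18394388 to 18408425, GRCh38), and SLC16A3 encodes the lactate exporter MCT4. LDHA had 683.7 and 777.3 CPM in HER2 WT and 459.0 and 603.8 CPM in HER2 L755S. The lines did not overlap, HER2 L755S being lower (means 730.5 ± 66.2 and 531.4 ± 102.4 CPM, SD, n = 2 each), but the log2 fold change of −0.46 (SE 0.299) did not pass (edgeR adjusted p = 0.777). Protein-coding genes within 5 Mb of LDHA had a median log2 fold change of −0.41, with 93.1% of 29 genes negative, and chromosome 11 as a whole had a median of −0.24; the part of this in the LDHA value was not tested.

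SLC16A3 had 20.4 and 11.8 CPM in HER2 WT and 12.4 and 7.32 CPM in HER2 L755S. It was lower in HER2 L755S within both numbers, by −0.72 and −0.69, while the lines overlapped because library 2 of each was low (log2 fold change −0.71, SE 0.412, edgeR adjusted p = 0.697). PDK1, the kinase that blocks pyruvate dehydrogenase, had 6.30 CPM in both HER2 WT libraries and 6.80 and 8.22 CPM in HER2 L755S. This small difference gave a log2 fold change of 0.25 (edgeR adjusted p = 0.983). Thus SLC2A1, LDHA and SLC16A3 had negative fold changes in both pairs, and most enzyme genes between these steps had positive ones. Of all these only PFKP passed the test without the number, and with the number as a replicate block SLC2A1 passed too.

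The 11 hypoxia targets did not share a direction. Of 10 tested, 7 fold changes were positive and 3 negative, with a median of 0.07. None passed in the edgeR fit without the number. In that fit 4 had an unadjusted p under 0.05 (EGLN3, VEGFA, NDRG1 and P4HA2), as did 1742 of all 16538 genes tested. DESeq2 called EGLN3, VEGFA and NDRG1, beside 3.54% of all genes tested, and limma-voom called none, beside 1.68%. With the number as a replicate block, edgeR called all 4, beside 10.5% of all genes. The lines did not overlap in any of these 4 genes, and their directions were mixed, EGLN3 and VEGFA being higher in HER2 L755S and NDRG1 and P4HA2 lower.

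EGLN3 encodes the HIF prolyl hydroxylase PHD3, itself a HIF target (chromosome 14, 33924231 to 34462774, GRCh38). It had 6.98 and 11.1 CPM in HER2 WT and 25.6 and 24.7 CPM in HER2 L755S. The HER2 L755S libraries lay close to each other and above both HER2 WT libraries, at 25.1 ± 0.673 against 9.02 ± 2.88 CPM (SD, n = 2 each). EGLN3 had a log2 fold change of 1.48 (SE 0.366, edgeR adjusted p = 0.0759), and of 1.18 to 1.86 over the 11 alternatives. DESeq2 called it (adjusted p = 0.00621) and limma-voom did not (adjusted p = 0.0764). With the number as a replicate block, which is not among the 11, the edgeR adjusted p was 0.000267.

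VEGFA, the main angiogenic growth factor (chromosome 6, 43770184 to 43786487, GRCh38), had 63.4 and 66.5 CPM in HER2 WT and 158.6 and 112.0 CPM in HER2 L755S. The HER2 WT libraries nearly coincided (64.97 ± 2.19 CPM), and both HER2 L755S libraries were higher (135 ± 32.9 CPM, SD, n = 2 each). The log2 fold change of 1.06 (SE 0.321) did not pass (edgeR adjusted p = 0.158), and it was 0.78 to 1.28 over the 11 alternatives. DESeq2 called VEGFA (adjusted p = 0.0484) and limma-voom did not (adjusted p = 0.16). With the number as a replicate block, which is not among the 11, the edgeR adjusted p was 0.00217. ADM, the vasodilator peptide adrenomedullin, went the other way with 5.75 and 2.34 CPM in HER2 WT and 3.21 and 1.91 CPM in HER2 L755S. The lines overlapped (log2 fold change −0.66, SE 0.529, edgeR adjusted p = 0.876), and the 46 genes within 5 Mb of ADM on chromosome 11 had a median of −0.53. ADM was lower in HER2 L755S within both numbers, by −0.83 and −0.29. In the fit without HER2 WT 1, which had no term for the number, the ADM log2 fold change was 0.13.

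NDRG1, a stress-responsive gene widely used as a hypoxia marker, had 5.84 and 5.58 CPM in HER2 WT and 2.05 and 0.779 CPM in HER2 L755S (189, 162, 60 and 20 counts). Both HER2 L755S libraries were lower, HER2 L755S 2 the most, with pair differences of −1.50 and −2.81. The log2 fold change was −2.0 (SE 0.521, edgeR adjusted p = 0.0927), and −2.87 to −1.48 over the 11 alternatives. DESeq2 called NDRG1 (adjusted p = 0.0155) and limma-voom did not (adjusted p = 0.0746). With the number as a replicate block, which is not among the 11, the edgeR adjusted p was 0.00192. Genes of chromosome 8 had a median log2 fold change of −0.34, and the 7 within 5 Mb of NDRG1 one of −0.05.

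P4HA1 and P4HA2 are the alternative catalytic subunits of the prolyl 4-hydroxylase that modifies collagen. P4HA2 had 46.8 and 43.3 CPM in HER2 WT and 29.5 and 23.4 CPM in HER2 L755S. HER2 L755S was lower in both libraries, with a log2 fold change of −0.77 (SE 0.330, edgeR adjusted p = 0.427). With the number as a replicate block the edgeR adjusted p of P4HA2 was 0.0137. P4HA1 had overlapping lines and a log2 fold change of 0.10. The P4HA2 share of their summed TPM was 50% and 42.9% in HER2 WT against 36.8% and 26.1% in HER2 L755S.

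Of the other tested hypoxia targets, BNIP3, KDM3A and MXI1 lay near 0. BNIP3, a mitophagy receptor, had 68.3 and 61.7 CPM in HER2 WT and 66.2 and 67.0 CPM in HER2 L755S, for a log2 fold change of 0.04. KDM3A, a histone demethylase that needs oxygen, and MXI1, a MYC antagonist, each had a log2 fold change of 0.07. ANKRD37, an ankyrin-repeat gene of low level here, was higher in HER2 L755S in both pairs, by 0.34 and 0.56. It had 4.88 and 3.24 CPM in HER2 WT and 6.19 and 4.79 CPM in HER2 L755S (log2 fold change 0.43, edgeR adjusted p = 0.928).

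**Figure D4:**
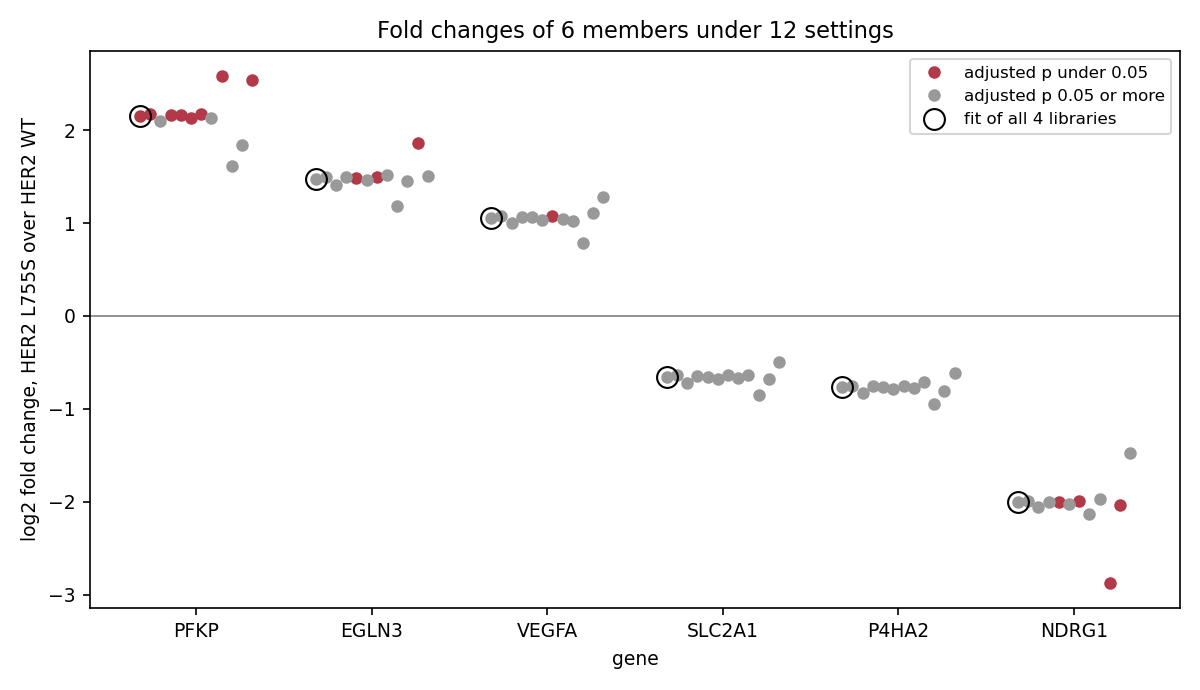
Log2 fold change of HER2 L755S over HER2 WT for 6 genes under 12 settings, one point per setting. The fit of all 4 libraries is ringed, and settings with an adjusted p under 0.05 are in red. The fit with the number as a replicate block is not drawn, and it called all 6 genes. No gene changes sign; PFKP is red under 8 settings, and SLC2A1 and P4HA2 are red under none.

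Genes of the surrounding pathways were counted in the fit without the number. Among 17 genes for HIF subunits and oxygen sensing, 16 were tested, 5 with positive and 11 with negative fold changes (median −0.08). None passed in edgeR, DESeq2 or limma-voom, and 1 had an unadjusted p under 0.05 in edgeR, HIF1A. HIF1A, the oxygen-regulated alpha subunit, had 112.4 and 175.8 CPM in HER2 WT and 249.0 and 352.2 CPM in HER2 L755S. Both HER2 L755S libraries were higher, with a log2 fold change of 1.06 (SE 0.341, adjusted p = 0.193); HIF activity is set mainly by protein stability, which was not measured.

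Among 38 further hypoxia targets, 34 were tested, 21 with positive and 13 with negative fold changes (median 0.10). The 2 that passed (5.88%, beside 1.69% of all genes tested) both fell in HER2 L755S. This list was chosen with earlier results of these data known, so the shares do not measure enrichment. CXCR4, the receptor of the chemokine CXCL12, had 45.3 CPM in both HER2 WT libraries and 5.33 and 0.974 CPM in HER2 L755S. It fell by 3.83 on the log2 scale (SE 0.626, edgeR adjusted p = 0.0111). PLOD2, a lysyl hydroxylase of collagen, had 6.02 and 9.99 CPM in HER2 WT and 1.16 and 1.95 CPM in HER2 L755S. Its log2 fold change was −2.36 (SE 0.479, edgeR adjusted p = 0.034), and the call was lost without HER2 WT 2 (adjusted p = 0.0639).

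STC2, a secreted glycoprotein of the stanniocalcin family, and DDIT4, an inhibitor of mTORC1, came next in that list and did not pass in edgeR, while DESeq2 called both (adjusted p = 0.000602 and 0.0075) and limma-voom neither. STC2 had 57.7 and 127.1 CPM in HER2 WT and 29.7 and 15.0 CPM in HER2 L755S (log2 fold change −2.05, edgeR adjusted p = 0.053). DDIT4 had 70.1 and 41.5 CPM in HER2 WT and 210.3 and 112.8 CPM in HER2 L755S (log2 fold change 1.53, edgeR adjusted p = 0.0895). In both genes the lines did not overlap, in opposite directions.

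Among 26 other genes of glycolysis, linked sugar-phosphate steps and glucose or monocarboxylate transport, 15 were tested. Fold changes were positive in 10 and negative in 5 (median 0.45). None was called by edgeR, DESeq2 or limma-voom, and 0 had an unadjusted p under 0.05 in edgeR. The smallest edgeR adjusted p was that of PGM2, a phosphoglucomutase (log2 fold change 0.67, adjusted p = 0.570). A list of 14 genes covered the pyruvate dehydrogenase complex, its kinases and phosphatases and the mitochondrial pyruvate carrier. It also held PC (pyruvate carboxylase) and CS (citrate synthase). These 14 genes split 7 to 7 with a median of 0.00. Here too edgeR called none and gave 0 unadjusted p-values under 0.05, and DESeq2 and limma-voom called none. PDP2, a phosphatase that activates the complex, came nearest with a log2 fold change of 0.72 (edgeR adjusted p = 0.517).

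Whether the numbers or the lines differed more broadly depended on the terms of the fit. Fitted alone, the number gave 0 called genes and the line 279 (1.69%). With the number as a replicate block, the line comparison called 10.5% of all genes. With the line as a term, 3010 genes (18.2%) differed by number, 9.94% of all genes being lower in number 2 and 8.26% higher. Of the 31 genes here, 4 fell in number 2 (12.9%) and none rose; KDM3A was nearest, with a log2 difference of 0.54 and edgeR adjusted p = 0.0516. The 4 were PFKL (−0.81, adjusted p = 0.0104), SLC16A3 (−0.77, adjusted p = 0.025), ALDOA (−0.70, adjusted p = 0.0287) and PFKP (−0.85, adjusted p = 0.0482). The libraries of the 2 numbers did not overlap in 13 genes lower in number 2 and 2 genes higher, beside 26.3% and 24.2% of all tested genes. Of the 15 enzyme genes, 13 had negative differences, 12 of them in both lines. The median over the 31 genes was −0.14 within HER2 WT and −0.47 within HER2 L755S. The larger mitochondrial share moved with the number, and its part in these differences was not tested. With mitochondrial genes left out of the counts, 24 of the 31 differences were still negative and the 4 named ones ran from −0.67 to −0.82, but only PFKL kept its call, as calls fell to 10.6% of all genes.

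**Figure D5:**
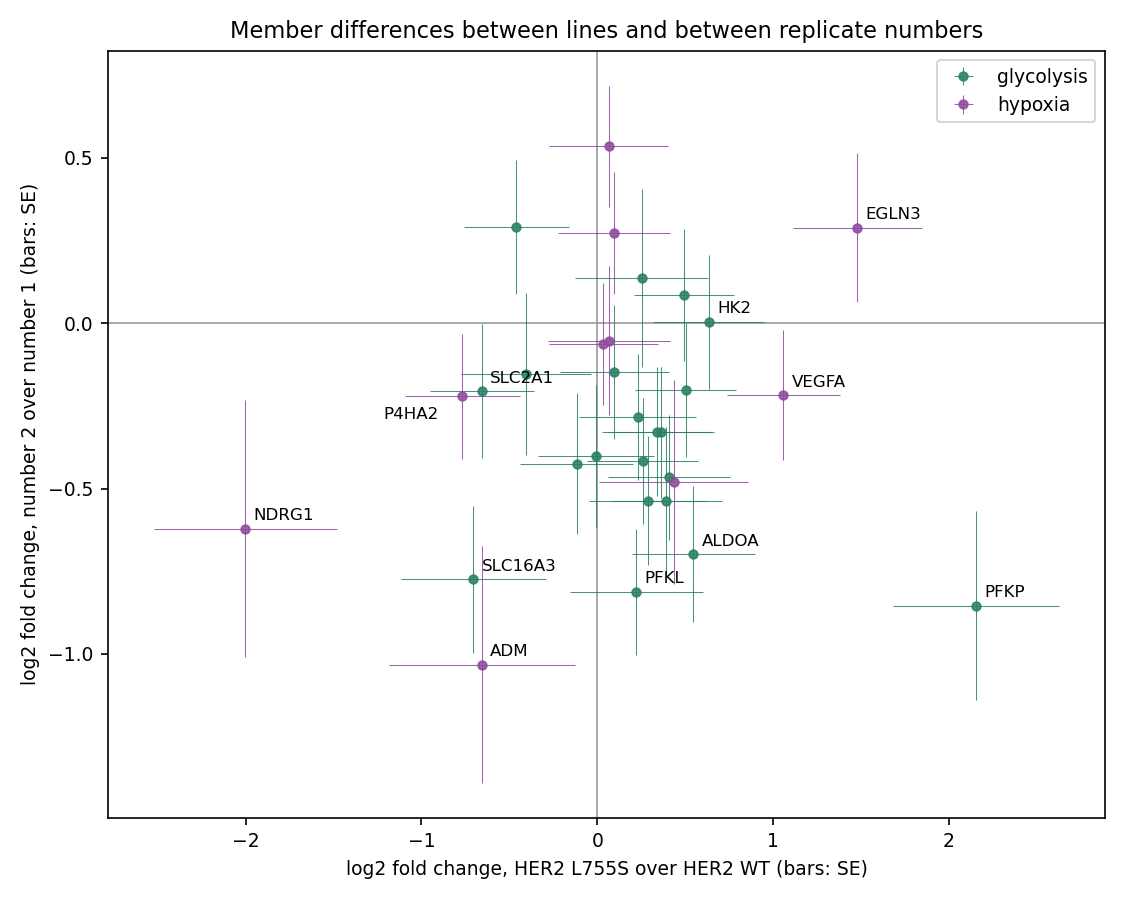
Each tested gene's log2 fold change between the lines (horizontal) against that between numbers 2 and 1 (vertical), with standard errors as bars. PFKP differs in both, PFKL and ALDOA lie low on the vertical axis only, and EGLN3 and VEGFA lie far right with number differences of 0.29 and −0.22.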

How the data were processed

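Poly(A) RNA of 4 samples of MM134 cells was sequenced, 2 libraries per line. Per the submitters' processing notes, STAR, edgeR and GRCh38 were used, and the authors deposited RSEM gene tables with expected counts, TPM and FPKM. Annotation release and strand setting are not given in the sources used here. Without the strand, a gene and an antisense partner cannot be told apart. The deposited expected counts, of which 9.53% to 11.54% per library were not whole, were rounded. Those of PFKM, ALDOA, SLC16A3 and ANKRD37 were not whole in any library and are uncertain where reads are shared with similar or overlapping genes. The deposited TPM served for levels and isozyme shares, and the deposited FPKM were not used.

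Counts were fitted in edgeR 4.0.16 (R 4.3.3) with TMM scaling, filterByExpr (16538 of 60675 genes kept) and the quasi-likelihood test between lines, two-sided, without the library number, with Benjamini-Hochberg adjustment over all tested genes and a threshold of 0.05. A second fit compared numbers 2 and 1 with the line as a term. CPM use the TMM-scaled library sizes, and pair differences use log2 CPM with a prior count of 0.5. Alternatives used DESeq2 1.42.0, limma 3.58.1 (voom), other scalings, filters and thresholds, and each library left out. On counts simulated for the line comparison over 16538 genes, the fit recovered 10% of 2-fold, 70% of 4-fold, 96% of 8-fold and 94% of 16-fold changes. Of its 147 calls, 12 fell on genes simulated without a change. The simulated counts held no difference between numbers, unlike the data. Gene positions are those of GENCODE 29 on GRCh38, and promoters those of RefSeq. Genes given in full were those called with or without the number in the fit, the one with the largest fold change per role, and SLC2A1, LDHA, CA9 and VEGFA, plus at most 4 per further list by adjusted p; all others are given in brief. The 34 genes and the lists were chosen with earlier results of these data known. One further list is not reported here.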

Additional observations from a re-analysis of the deposited data

How the results depend on the processing

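The line comparison called 122 genes higher and 157 lower in HER2 L755S, with 1 and 0 of the 34 genes. An adjusted p of 0.01 left 49 and 49 genes and 0 of the 34. The 34 also had 0 calls without scaling and with limma-voom. With no filter the calls were 328 and 431 genes, 2 of the 34 higher (EGLN3 gained) and 1 lower (NDRG1). DESeq2 gave 276 and 309 genes, with 3 higher (VEGFA also gained) and 1 lower (NDRG1). Leaving out each library gave 160 to 220 genes higher and 184 to 328 lower, with 0 to 1 of the 34 in each direction. With 1 library left out, the spread of the lone library is taken from the other line. NDRG1 was called without HER2 L755S 1 (adjusted p = 0.00337) and without HER2 WT 2 (0.0484), and EGLN3 without HER2 WT 2 (0.0448).

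The labels do not say what the library number stands for. The deposited data of the libraries numbered 2 carry the word merged in their names. What was merged is not stated, and its part in the number differences was not tested. Deviations of same-numbered libraries from their line means correlated at 0.425 over all tested genes and at 0.649 over those with a mean of at least 5 CPM, a hint from 2 pairs and not a design. With the number as a replicate block, 725 genes were higher and 1018 lower, 3 of the 34 higher (PFKP, EGLN3 and VEGFA) and 3 lower (NDRG1, P4HA2 and SLC2A1), beside 10.5% of all genes. Of the genes named from the further lists, ESR1 (edgeR adjusted p = 0.000171), HIF1A (0.00119), PGM2 (0.0442), PDP2 (0.0359), STC2, DDIT4 and GYG1 were also called with the block.

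For number 2 against number 1 the fit called 1366 genes higher and 1644 lower. DESeq2, and DESeq2 size factors in edgeR, each called 1 of the 34 higher (KDM3A). In DESeq2 the calls of SLC16A3 (adjusted p = 0.0623) and PFKP (0.119) were lost and GAPDH was gained (0.0427). Without mitochondrial genes 893 genes were higher and 855 lower, with 1 of the 34 lower. With no term for the line, edgeR called 0 genes in either direction (2796 with an unadjusted p under 0.05) and 0 of the 34. Leaving out each library, where no line term can be kept, gave 0 genes (1174 to 2628 unadjusted) and 0 of the 34; the PFKP difference then ran from −2.26 to 0.60, reversed without HER2 L755S 1. The cause of these changes was not tested, beyond the fewer libraries or terms in a fit. With 2 libraries per line, 10% of the simulated 2-fold changes and 70% of the 4-fold ones were recovered, so a gene that did not pass is not shown to be alike in both lines.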

Other observations

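Of 16 genes of gluconeogenesis and glycogen metabolism, 13 were tested, 9 with positive and 4 with negative fold changes (median 0.30). Only 1 passed, PYGL (7.69%, beside 1.69% of all genes tested). The shares do not measure enrichment, since this list too was chosen with earlier results of these data known. PYGL, the liver glycogen phosphorylase that releases glucose units from glycogen, had 9.82 and 9.61 CPM in HER2 WT and 1.26 and 0.935 CPM in HER2 L755S. It fell by 3.14 on the log2 scale (SE 0.439, edgeR adjusted p = 0.0062) and was called in all 11 alternatives, at adjusted p-values up to 0.00922. GYG1, the glycogenin that primes glycogen synthesis, had 48.8 and 41.4 CPM in HER2 WT and 131.4 and 111.2 CPM in HER2 L755S. The lines did not overlap, and the log2 fold change of 1.43 fell just short in edgeR (adjusted p = 0.0508), while DESeq2 and limma-voom called it.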
